A study of Branchiostoma lanceolatum with 8 samples.

Results

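The genes described here are the heat shock proteins and molecular chaperones of the amphioxus *Branchiostoma lanceolatum*, measured in ectodermal explants that were treated with Activin or left as controls. They were chosen by the gene name that the deposited tables give each identifier: the HSPA, HSPB, HSPD, HSPE, HSPH and HSP90A families, the DNAJA, DNAJB and DNAJC proteins, CCT and TCP1, BAG, ST13, STIP1, prefoldin and HSF. The rule reads names and no measured value, but it was drawn up with earlier results of these data known. It found 70 genes of 18998 in either table, 67 of 15793 at 11 hours post fertilization (hpf) and 70 of 16733 at 19 hpf. They carry 59 symbols, and 20 of the genes share their symbol with another member, so those are told apart by identifier. By known location 45 were placed in the cytosol or nucleus, 7 in mitochondria and 11 in the endoplasmic reticulum (ER). Of the rest, 3 belong to vesicles and endosomes, 2 to cilia and 1, DNAJC22, was not assigned. TCP11L1 entered through its name alone and is not a chaperone.

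Explants of ectoderm, the outer cell layer of the embryo, were exposed to Activin (human recombinant protein, 50 ng/mL) and collected at 11 or 19 hpf, next to control explants of the same ages. Each of the 4 groups held 2 poly(A) RNA-seq libraries, 8 in all, each from pooled explants of different fertilizations. Values per library were not used here, because the authors' deposited tables hold comparisons: a mean normalized count over the libraries of a time, a log2 fold change with its standard error, and an adjusted p. All single-gene values below come from these tables or are computed from them, and ± gives the authors' standard error of a log2 fold change (2 libraries per group).

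Chaperones bind unfolded or partly folded proteins and let them fold, assemble or be passed on. HSP70 proteins do so in cycles of ATP use that J-domain (DNAJ) proteins start and exchange factors such as HSP110 and BAG proteins reset, and HSP90 then acts on late folding steps of kinases and receptors. The ring-shaped chaperonin CCT, also called TRiC, folds actin and tubulin, with prefoldin delivering them. Mitochondria and the ER hold their own HSP70, J-domain and partner proteins.

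Which group stands on top of the fold change is not written in the headers. It was taken to be Activin, so that a positive value means higher in Activin explants, since 3 known targets of such signals in chordate embryos had positive values: LEFTY2 at 6.39 ± 0.53, CHRD at 4.59 ± 0.43 and GSC at 2.77 ± 0.58 at 11 hpf. A gene was called where the authors' Benjamini-Hochberg adjusted p was below 0.05, and only called genes are said to have risen or fallen. A group's rebuilt mean follows from the gene's deposited mean together with its fold change, with equal weight to both groups, and is in normalized counts without correction for gene length. The standard error of the members had a median of 0.46 at 11 hpf and 0.42 at 19 hpf in log2 units. At a mean of 1000 or more, an error of the median size set a 95% limit of 1.61-fold at 11 hpf and 1.56-fold at 19 hpf. Depth per library is unknown.

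The control explants carried ectodermal transcripts. Of the epidermal markers TFAP2D, GATA2, KRT8 and DLX1, all 4 genes listed at 11 hpf and all 5 at 19 hpf were lower in Activin explants. They summed to 10198 normalized counts in Activin and 314375 in control explants at 11 hpf, and to 36652 in Activin and 774007 in control explants at 19 hpf. KRT8 (BL15060) alone held 257288 of that control sum at 11 hpf and 739980 at 19 hpf, where its standard error was 1.52. Over all genes 12.0% rose and 24.6% fell at 11 hpf, and 18.7% rose and 27.7% fell at 19 hpf. Of 11 neural plate markers 7 were higher and 2 lower in Activin explants at 11 hpf, and 7 higher and 3 lower at 19 hpf. Of 7 muscle and mesoderm markers 1 was higher at 11 hpf and 2 at 19 hpf, 14.3% and 28.6%, near the shares of all genes. Of 4 endoderm markers 1 was higher at 11 hpf, and 3 were higher and 1 lower at 19 hpf. Of 10 proliferation genes 6 were higher in Activin explants at 11 hpf and 8 at 19 hpf, and 0 were lower (0 also at an unadjusted p below 0.05 by the authors' Wald test). In these mixed samples fewer cells of a type and less RNA per cell cannot be told apart.

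At 11 hpf the chaperones were split in the Activin comparison, and at 19 hpf most of the abundant ones were higher in Activin explants. The first comparison asked which genes differed between Activin and control explants at 11 hpf, and 27 of the 67 members were called, 40.3%, against 36.6% of all genes. Of these, 10 rose, 14.9% against 12.0% of all genes, and 17 fell, 25.4% against 24.6%, so the shares lay near the background. At 19 hpf the same question gave 42 of 70 members called, 60.0% against 46.4% of all genes. Here 29 rose, 41.4% against 18.7%, and 13 fell, 18.6% against 27.7%. The median log2 fold change of the members was 0.27 at 11 hpf and 0.90 at 19 hpf, against 0.07 for all genes at each time.

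Among abundant genes, those with a mean of 1000 or more, 16 of 18 members rose and 1 fell at 19 hpf. Of all 2112 genes as abundant at that time, 27.6% rose and 43.5% fell. At 11 hpf 4 of 14 such members rose and 4 fell, where 13.6% of all 1764 genes as abundant rose and 48.2% fell. Both medians depend on the scaling: centred on 62 cytosolic ribosomal protein genes, which themselves had a median of 0.37 at 11 hpf and 1.05 at 19 hpf, the members' medians became -0.1 and -0.15. The other scalings kept both medians positive. Across the 5 scalings the split of higher against lower calls ran from 4 against 22, on ribosomal centring, to 31 against 6, by total count, at 11 hpf, and from 8 against 21 to 44 against 6 at 19 hpf. Each scaling shifts all genes of a time alike, and the shares of all genes under it were not counted. These splits therefore do not compare the members with other genes. Calls at 11 hpf held under all 5 for CCT2, CCT6A (BL21041), DNAJC2 and ST13, which rose, and for DNAJB12, DNAJB13, DNAJC22, DNAJC27 (BL08054), HSPA6 and HSPA8 (BL01083), which fell. At 19 hpf they held for CCT2, DNAJB11 (BL16455), DNAJC11, DNAJC2, HSPA14, HSPA9, HSPD1 and HSPH1, which rose, and for BAG3, BAG4, DNAJB13, DNAJB4, DNAJC27 (BL08054) and HSPB11, which fell.

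**Figure D1:**
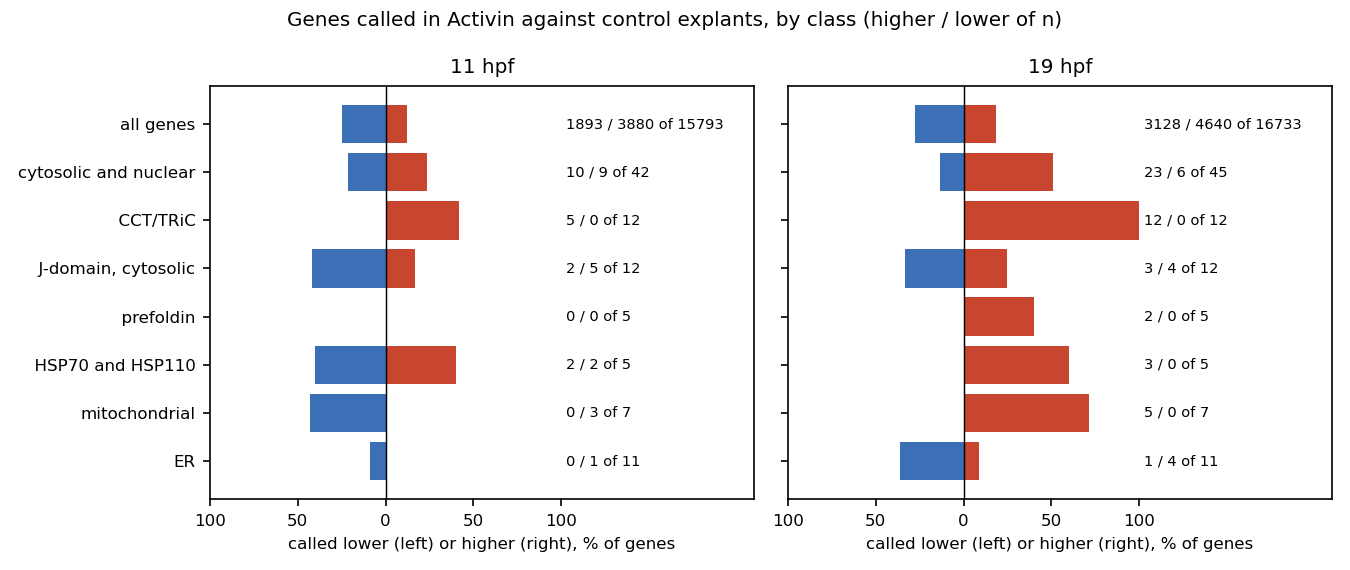
Share of genes called lower (bars to the left) or higher (bars to the right) in Activin against control explants at 11 hpf and 19 hpf, with counts of higher and lower genes beside each bar. All 12 CCT/TRiC genes and 5 of 7 mitochondrial members were called higher at 19 hpf, against 18.7% of all genes.

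The cytosolic and nuclear members numbered 10 higher and 9 lower of 42 at 11 hpf, 23.8% and 21.4% against 12.0% and 24.6% of all genes. At 19 hpf 23 were higher and 6 lower of 45, 51.1% and 13.3% against 18.7% and 27.7%. The medians were 0.50 and 1.02. On ribosomal centring the 19 hpf median was -0.03, with 4 higher and 6 lower.

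Of the cytosolic HSP70 family, HSPA8 (BL10970), the constitutive HSP70 of the cytosol, was close to 2-fold higher in Activin explants at both times. Its rebuilt mean was 6047 normalized counts in Activin and 3048 in control explants at 11 hpf, and 19820 in Activin and 10120 in control explants at 19 hpf. In the authors' deposited table it rose by 0.99 ± 0.37 at 11 hpf (adjusted p = 0.025) and by 0.97 ± 0.34 at 19 hpf (adjusted p = 0.011). Ribosomal centring turned the value at 19 hpf to -0.08. HSPH1 (BL23692), the HSP110 that exchanges nucleotide on HSP70, averaged 1883 in Activin and 911.5 in control explants at 11 hpf, and 3592 in Activin and 543.7 in control explants at 19 hpf. It rose by 1.05 ± 0.36 at 11 hpf and by 2.72 ± 0.34 at 19 hpf, and the effect at 19 hpf was larger by 1.68 ± 0.50, adjusted p = 0.0078 by the Wald test of the difference. That test used both standard errors and was adjusted over the 13528 genes in both tables, of which it called 16.8%. HSPH1 lost its call at 11 hpf and its difference on ribosomal centring, at 0.68 and 1.0.

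HSPA14 (BL19237), which in mammals forms a ribosome-bound complex with DNAJC2 that meets nascent chains, was the member with the highest fold change at 19 hpf. Its rebuilt mean at 19 hpf was 470.5 in Activin and 35.61 in control explants, 13.2-fold higher. The authors' deposited table gives it 3.72 ± 0.48 (adjusted p = 8.4e-14). At 11 hpf it stood at 0.89 ± 0.51, not called, and the difference between times passed, 2.84 ± 0.70 (adjusted p = 9.8e-04). Its partner DNAJC2 (BL13077) rose at both times, by 1.87 ± 0.52 at 11 hpf and by 3.43 ± 0.46 at 19 hpf. The difference of 1.56 ± 0.70 between its times did not pass (adjusted p = 0.11).

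A pair of scarce HSP70 genes went the other way at 11 hpf. HSPA6 (BL21182), in humans a strictly stress-induced HSP70, had 10.17 normalized counts in Activin and 119.4 in control explants, and fell, at -3.55 ± 0.87. A second HSPA8 gene (BL01083) had 4.994 in Activin and 59.3 in control explants, and lay at -3.57 ± 1.10 (adjusted p = 0.0045). Neither was called at 19 hpf, at 0.71 ± 0.63 and 0.51 ± 0.97, and for both the difference between times passed, 4.26 ± 1.08 (adjusted p = 0.0013) and 4.08 ± 1.47 (adjusted p = 0.036). Reads that such copies share could be split between them in counting, so the values of scarce copies beside an abundant one are uncertain.

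**Figure D2:**
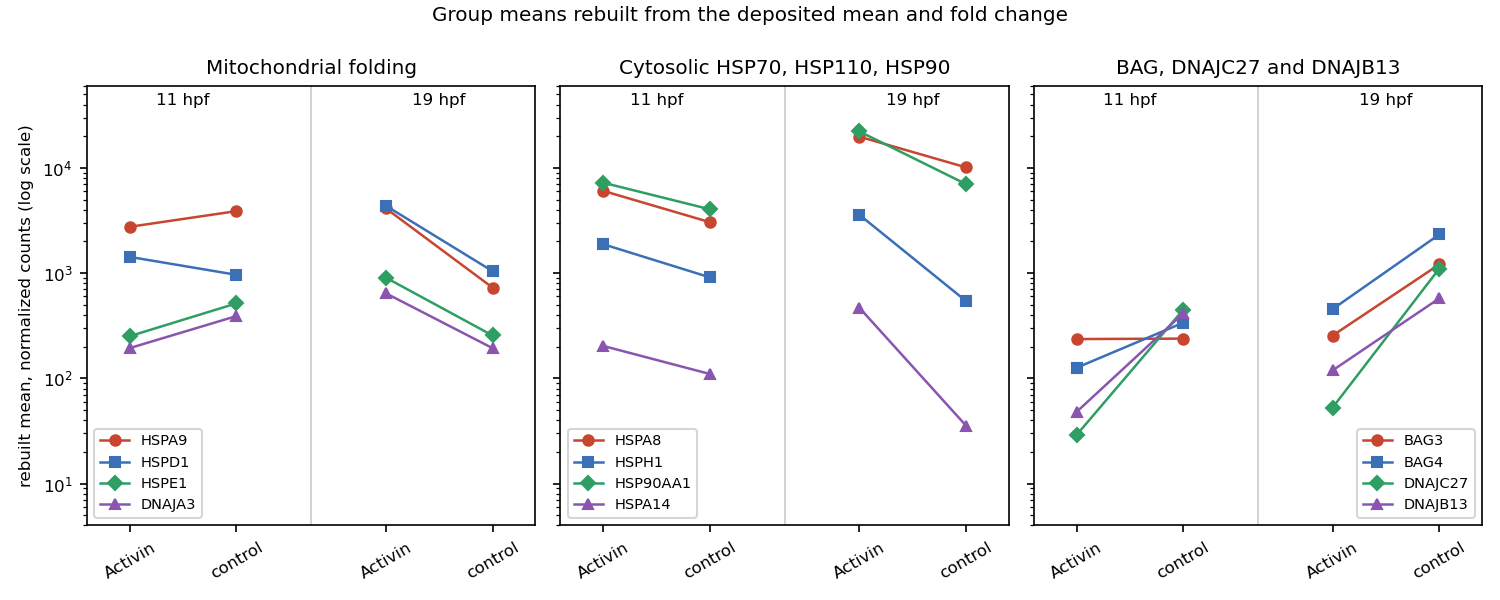
Rebuilt mean normalized counts (log axis) in Activin and control explants at 11 and 19 hpf for 12 genes, each line joining both groups of a gene at a time. The mitochondrial genes HSPA9, HSPE1 and DNAJA3 had the lower value in Activin at 11 hpf and the higher value in Activin at 19 hpf. BAG3, BAG4, DNAJC27 (BL08054) and DNAJB13 were lower in Activin at 19 hpf.

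HSP90 had 3 genes. The abundant HSP90AA1 gene (BL24908) averaged 7230 in Activin and 4041 in control explants at 11 hpf, at 0.84 ± 0.42 and not called, and 22214 in Activin and 7019 in control explants at 19 hpf, where it rose by 1.66 ± 0.36 (adjusted p = 1.7e-05). On ribosomal centring that value was 0.61 and not called. HSP90AA1 (BL01197) rose at 19 hpf too, by 1.43 ± 0.58. HSP90AA1 (BL18399) fell at 11 hpf, at -1.2 ± 0.47, and lay at 0.78 ± 0.50 at 19 hpf, not called, with a difference between times of 1.98 ± 0.68 (adjusted p = 0.028), which was lost on abundant genes (1.61) and on ribosomal centring (1.3).

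Of the 3 adaptor genes of HSP70 and HSP90, 1 rose at each time, 33.3% against 12.0% of all genes at 11 hpf and 18.7% at 19 hpf. These are too few genes to set against those shares. ST13 (BL00662), the HSP70-interacting protein Hip, had 1700 in Activin and 531.2 in control explants at 11 hpf, and 1970 in Activin and 637.5 in control explants at 19 hpf. It rose by 1.68 ± 0.35 and 1.63 ± 0.35, and the interval of its difference between times ran from -1.02 to 0.92. STIP1 (BL16432), the HSP70-HSP90 organizing protein Hop, lay at 0.53 ± 0.46 and 0.41 ± 0.47, and STIP1 (BL24281) had a mean near 10 counts, so neither was called at either time.

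BAG proteins release clients from HSP70, and 2 of 4 fell at 19 hpf, 50.0% against 27.7% of all genes, too few genes to set against that share. BAG3 (BL12526), of the stress and selective autophagy response, had 236.2 in Activin and 238.6 in control explants at 11 hpf, a log2 value of -0.01 ± 0.50, not called. At 19 hpf it had 255.1 in Activin and 1210 in control explants, and fell, at -2.25 ± 0.39 (adjusted p = 5.3e-08), with a difference between times of -2.23 ± 0.63 (adjusted p = 0.0050). BAG4 (BL14235) fell at both times, at -1.42 ± 0.46 and -2.36 ± 0.35, where its rebuilt mean at 19 hpf was 455 in Activin and 2331 in control explants. Its call at 11 hpf was lost on abundant genes (-0.69) and by upper quartile (-0.98). BAG1 and BAG2 were listed at 19 hpf alone, under 10 counts on average, and were not called.

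All 12 genes of CCT/TRiC, with every subunit name from TCP1 to CCT8 among them, rose at 19 hpf, against 18.7% of all genes. Their log2 fold changes were 0.91 to 2.12, with a median of 1.22. At 11 hpf 5 of the 12 rose, 41.7% against 12.0%, and 0 fell, against 24.6% (0 also at an unadjusted p below 0.05 by the authors' Wald test). The range at 11 hpf was -0.33 to 1.57, with a median of 0.77. CCT2 (BL17914) had 2144 in Activin and 900.5 in control explants at 11 hpf, and 3385 in Activin and 781 in control explants at 19 hpf. In the authors' deposited table CCT2 rose by 1.25 ± 0.35 (adjusted p = 0.0017) and 2.12 ± 0.34 (adjusted p = 3.6e-09). TCP1 (BL19510) rose by 1.11 ± 0.38 and 1.2 ± 0.34, CCT6A (BL21041) by 1.53 ± 0.46 and 1.38 ± 0.35, CCT6A (BL19127) by 1.57 ± 0.63 and 1.91 ± 0.56, and CCT6B by 1.45 ± 0.49 and 1.18 ± 0.34.

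The other CCT genes were called at 19 hpf alone: CCT3 at 1.13 ± 0.32, CCT4 at 1.02 ± 0.32, CCT5 at 0.91 ± 0.33, CCT8 at 1.31 ± 0.33 and the 3 CCT7 genes at 0.95 ± 0.34, 1.24 ± 0.41 and 1.26 ± 0.55. The lowest at both times was CCT5, with 950.5 in Activin and 1197 in control explants at 11 hpf (-0.33 ± 0.35, not called) and 2223 in Activin and 1186 in control explants at 19 hpf. None of the 12 had an effect that differed between the times by the adjusted Wald test, and 1, CCT5, had an unadjusted p below 0.05, at 1.24 ± 0.49 (adjusted p = 0.060). So 5 calls at 11 hpf and 12 at 19 hpf are not shown to be different responses. At 19 hpf CCT7 (BL84057) passed narrowly by the authors' Wald test (adjusted p = 0.047). CCT5 (adjusted p = 0.017) and CCT7 (BL24068, adjusted p = 0.015) did not pass at 0.01 either. On ribosomal centring CCT2 alone was called at 19 hpf, the median was 0.17, and CCT4, CCT5 and CCT7 (BL24068) turned to -0.03, -0.14 and -0.09.

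Prefoldin had 5 genes, PFDN1, PFDN2, PFDN4, PFDN5 and PFDN6. None was called at 11 hpf by the authors' Wald test, where 2, PFDN1 and PFDN6, had an unadjusted p below 0.05, both at -1.02. Both were called lower when adjusted over genes with a mean of at least 10, when centred on the median of all genes and on ribosomal centring. At 19 hpf PFDN2 rose by 0.99 ± 0.39 (-0.06 on ribosomal centring) and PFDN6 (BL14405) by 1.10 ± 0.40, and the other 3 lay between 0.59 and 0.67. PFDN6 had 224.4 in Activin and 456.3 in control explants at 11 hpf, and 523.2 in Activin and 244 in control explants at 19 hpf. Its difference between times passed, 2.12 ± 0.59 (adjusted p = 0.0041), and was 1.44 and not called on ribosomal centring, which also turned the prefoldin median of 0.67 at 19 hpf to -0.38.

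Of 12 cytosolic and nuclear J-domain proteins, 2 rose and 5 fell at 11 hpf, 16.7% and 41.7% against 12.0% and 24.6% of all genes. At 19 hpf 3 rose and 4 fell, 25.0% and 33.3% against 18.7% and 27.7%, near the background. DNAJA1 (BL21611) and DNAJA2 (BL07408), the general partners of HSP70, were lower in Activin explants at 11 hpf. DNAJA1 had 3475 in Activin and 6471 in control explants, at -0.90 ± 0.33 (adjusted p = 0.021), which total-count scaling turned to a log2 value of 0.08. DNAJA2 had 2094 in Activin and 4915 in control explants, at -1.23 ± 0.34 (adjusted p = 0.0015), a call lost on abundant genes, by upper quartile and by total count. At 19 hpf DNAJA2 had 2774 in Activin and 1618 in control explants and rose by 0.78 ± 0.34, which ribosomal centring turned to -0.27. DNAJA1 was at 0.38 ± 0.34, not called. For both the difference between times passed, 1.28 ± 0.48 (adjusted p = 0.045) for DNAJA1 and 2.01 ± 0.48 (adjusted p = 5.8e-04) for DNAJA2.

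DNAJC27 (BL08054), a Rab-like GTPase with a J domain, had the largest fall of any member at both times. Its rebuilt mean was 28.95 in Activin and 449.2 in control explants at 11 hpf, 15.5-fold lower (-3.96 ± 0.48), and 52.78 in Activin and 1106 in control explants at 19 hpf, 21.0-fold lower (-4.39 ± 0.39). A second gene, DNAJC27 (BL02282), fell too, at -1.19 ± 0.36 and -1.15 ± 0.38. Its call at 11 hpf was lost on abundant genes (-0.46), by upper quartile (-0.75) and by total count (-0.22). DNAJB4, a J-domain protein of the heat-induced DNAJB1 group, fell at both times, at -3.37 ± 1.07 and -2.55 ± 0.54, with 152.5 in Activin and 896.3 in control explants at 19 hpf. DNAJB2, which hands clients to the proteasome, fell at 19 hpf (-1.09 ± 0.36). Among nuclear members DNAJC8, of the spliceosome, rose by 1.41 ± 0.44 at 11 hpf, and DNAJC21, which acts in ribosome biogenesis, rose by 2.20 ± 0.66 at 19 hpf. DNAJC12, DNAJC17 and DNAJC9 were not called at either time.

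Only HSF5 matched among heat shock factors. It had a mean near 4 counts at 19 hpf, was not listed at 11 hpf and was not called. The name rule matched no HSF1, HSPA1A, DNAJB1 or cytosolic small heat shock protein, and these were not analysed here.

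**Figure D3:**
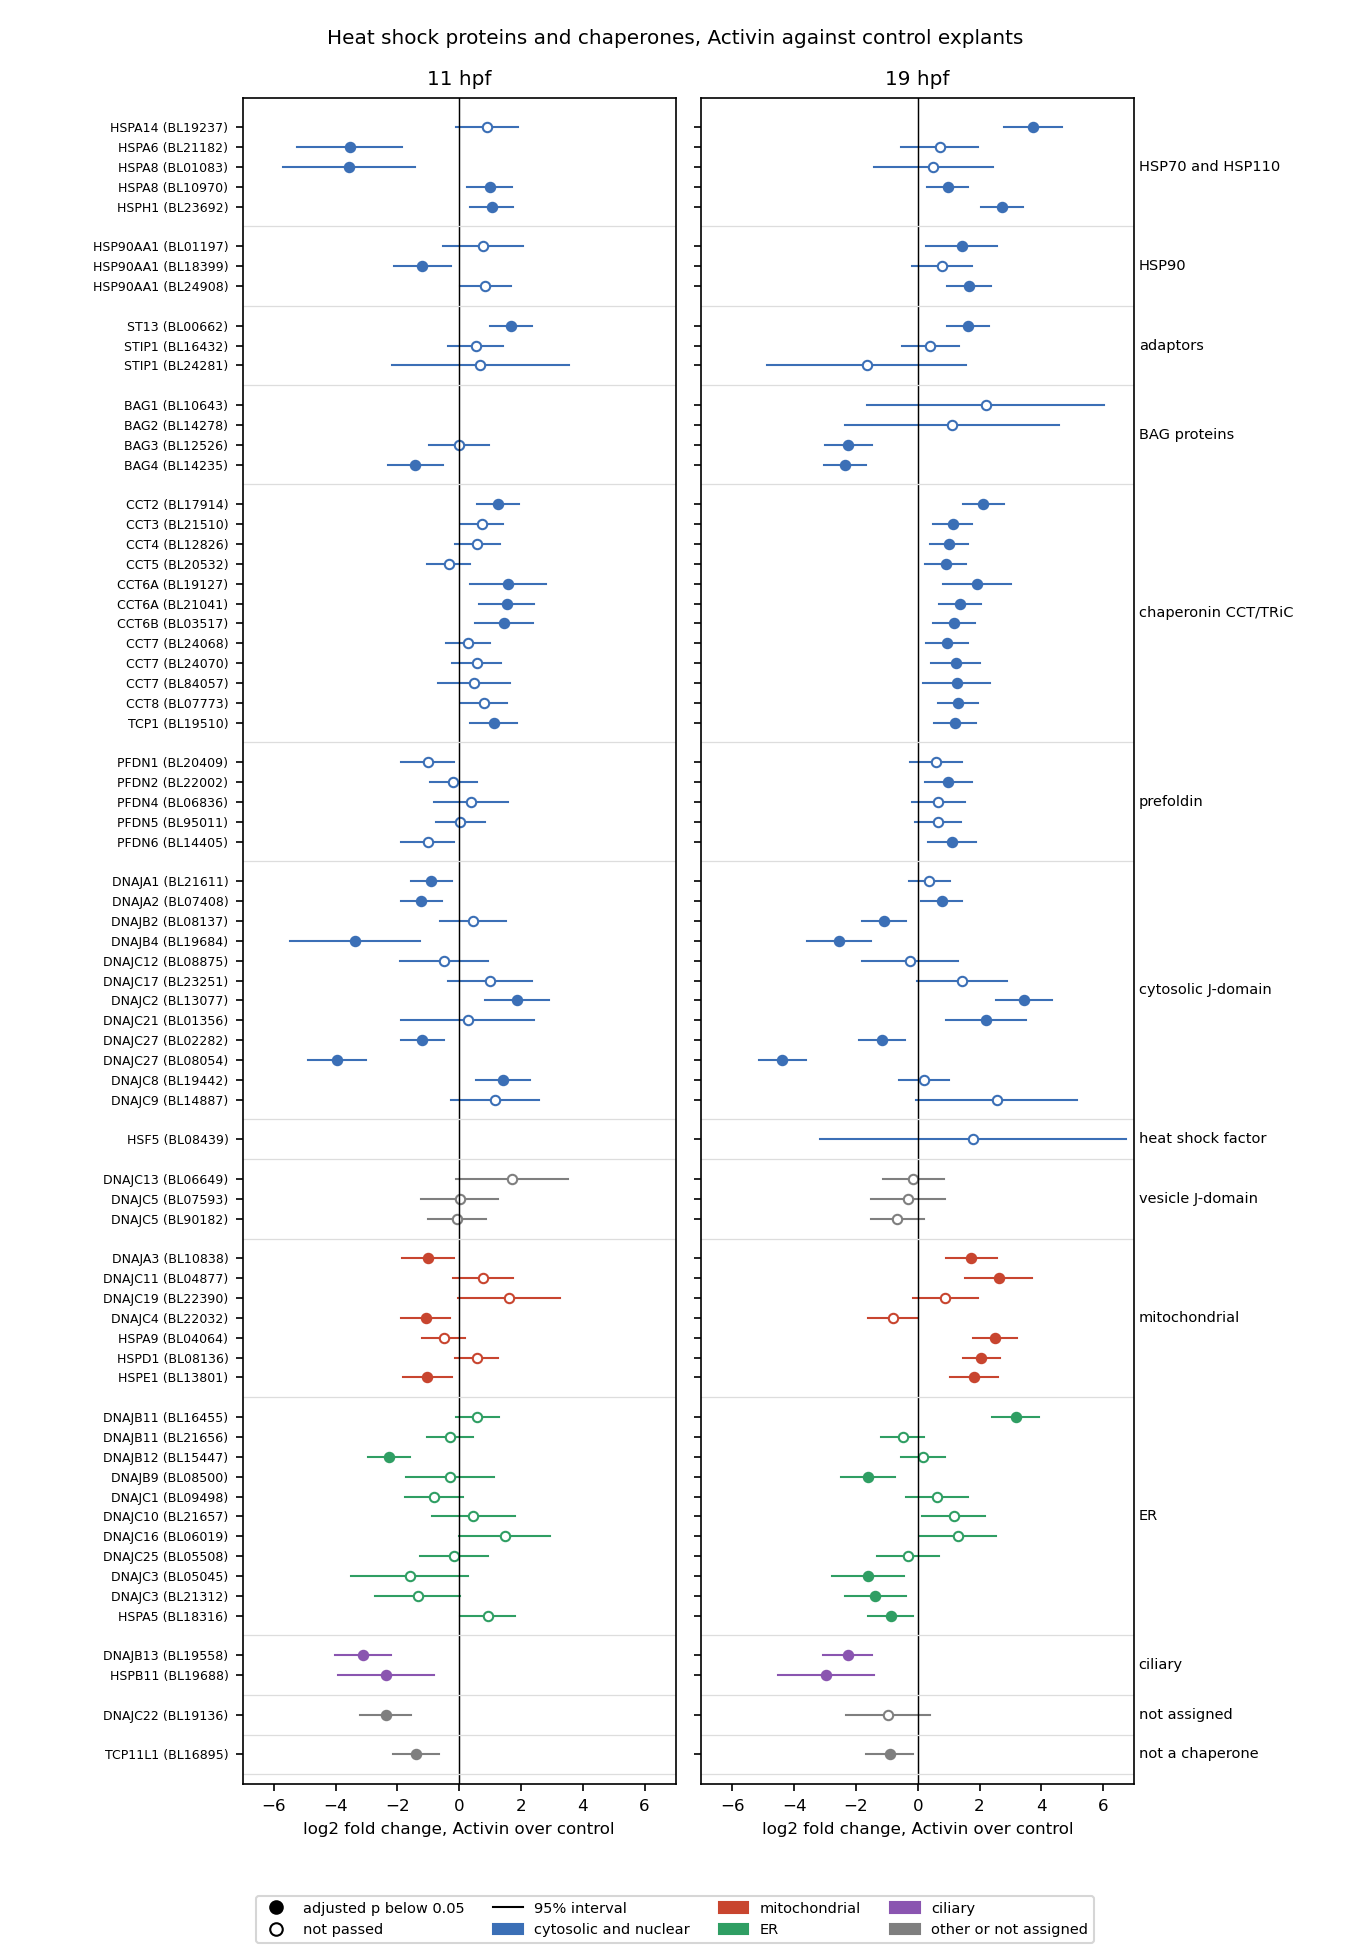
Log2 fold change of every member in Activin over control explants at 11 hpf (left) and 19 hpf (right), with the 95% interval from the authors' standard error; filled points were called. The 12 CCT/TRiC genes lie at 0.91 to 2.12 at 19 hpf, and DNAJC27 (BL08054) has the lowest value at both times.

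The mitochondrial members were mostly higher in Activin explants at 19 hpf and not at 11 hpf. At 11 hpf 3 of 7 fell, 42.9% against 24.6% of all genes, and 0 rose, against 12.0% (0 also at an unadjusted p below 0.05 by the authors' Wald test). For so few genes these shares at 11 hpf lay near the background. At 19 hpf 5 rose, 71.4% against 18.7%, and 0 fell, against 27.7% (1 at an unadjusted p below 0.05). Their median log2 fold change was -0.49 at 11 hpf and 1.83 at 19 hpf. For 4 of the 7 the effect at 19 hpf was higher than at 11 hpf by the Wald test of the difference, 57.1% against 10.1% of all genes, and for 0 it was lower. All 4 are folding proteins of the mitochondrial matrix.

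HSPA9 (BL04064), the mitochondrial HSP70 that also pulls proteins in during import, had 2756 in Activin and 3883 in control explants at 11 hpf. At 19 hpf it had 4128 in Activin and 728.3 in control explants. In the authors' deposited table its value was -0.49 ± 0.35, not called, at 11 hpf, and it rose by 2.50 ± 0.37 at 19 hpf (adjusted p = 6.7e-11). The difference of 3.0 ± 0.51 had an adjusted p of 3.0e-07.

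HSPD1 (BL08136) and HSPE1 (BL13801) form the mitochondrial chaperonin, HSP60 with its lid HSP10. HSPD1 had 1426 in Activin and 963.4 in control explants at 11 hpf, and 4368 in Activin and 1044 in control explants at 19 hpf. HSPE1 had 251.7 in Activin and 515.9 in control explants at 11 hpf, and 905.8 in Activin and 255.6 in control explants at 19 hpf. So at 11 hpf HSPD1 lay at 0.57 ± 0.35, not called, while HSPE1 fell, at -1.04 ± 0.40, and at 19 hpf they rose by 2.06 ± 0.31 and 1.83 ± 0.40. The difference between times was 1.5 ± 0.47 (adjusted p = 0.014) for HSPD1 and 2.86 ± 0.57 (adjusted p = 2.0e-05) for HSPE1.

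DNAJA3 (BL10838), the J-domain partner of HSPA9, had 193.9 in Activin and 390.8 in control explants at 11 hpf, and 643.6 in Activin and 193.6 in control explants at 19 hpf. It fell at 11 hpf, at -1.01 ± 0.43, and rose by 1.73 ± 0.42 at 19 hpf, a difference of 2.74 ± 0.60 (adjusted p = 1.2e-04). DNAJC11, of the cristae-organizing machinery, rose by 2.62 ± 0.55 at 19 hpf after 0.77 ± 0.50 at 11 hpf, not called. DNAJC19, of the import motor, was not called at either time. DNAJC4 fell at 11 hpf (-1.08 ± 0.40) and lay at -0.81 ± 0.40 at 19 hpf, not called.

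The rises at 19 hpf of HSPA9, HSPD1 and DNAJC11 were called under all 5 other scalings, and those of HSPE1 and DNAJA3 under 4, being lost on ribosomal centring. The falls at 11 hpf were lost under 3 scalings, the median of abundant genes, the upper quartile and the total count, where 0 mitochondrial members were lower and 3 higher. The differences between times of HSPA9, HSPE1 and DNAJA3 held under all 5, and that of HSPD1 was lost on abundant genes (1.13) and on ribosomal centring (0.82). Proliferation genes were higher in Activin explants at both times, 6 of 10 at 11 hpf with a median of 2.20 and 8 of 10 at 19 hpf with a median of 2.03. They summed to 26135 normalized counts in Activin and 25255 in control explants at 11 hpf, where MKI67 had 12221 in Activin and 17691 in control explants and was not called. At 19 hpf they summed to 6857 in Activin and 1407 in control explants. Their part in the result was not tested.

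**Figure D4:**
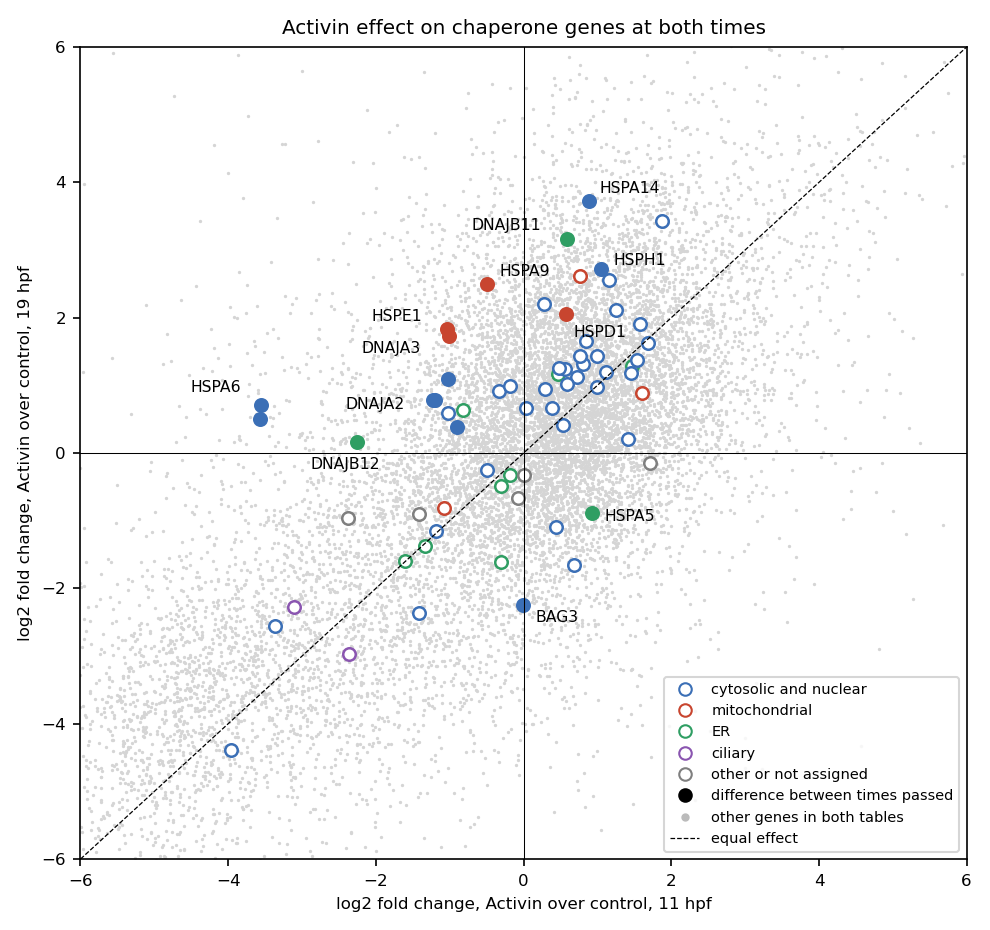
Log2 fold change of Activin over control at 11 hpf (x) and 19 hpf (y) for the 67 members in both tables, over all other genes in grey, with values beyond 6 in size outside the frame. Filled points passed the test of the difference between times, 14 above the line of equal effect, among them 4 mitochondrial genes, and 2 below it, HSPA5 and BAG3.

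Of the 11 ER members 4 fell at 19 hpf, 36.4% against 27.7% of all genes, and 1 rose, 9.09% against 18.7%, shares near the background for so few genes. At 11 hpf 0 rose, against 12.0% of all genes, and 1 fell, 9.09% against 24.6% (1 each way at an unadjusted p below 0.05 by the authors' Wald test). The median was -0.30 at 11 hpf and -0.32 at 19 hpf. Both medians turned positive under 3 scalings, the median of abundant genes, the upper quartile and the total count. HSPA5 (BL18316), the HSP70 of the ER also known as BiP, had 292.4 in Activin and 154.8 in control explants at 11 hpf (0.92 ± 0.45, not called). At 19 hpf it had 456.3 in Activin and 841.5 in control explants, and fell, at -0.88 ± 0.37 (adjusted p = 0.038). That call was lost, with the sign kept, on abundant genes, by upper quartile and by total count. Its difference between times was -1.80 ± 0.58 (adjusted p = 0.018), the opposite sign to that of its mitochondrial relative HSPA9.

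J-domain partners of HSPA5 split. DNAJB9, which is induced by unfolded proteins, fell at 19 hpf (-1.61 ± 0.44), as did both DNAJC3 genes, whose product binds clients for HSPA5, at -1.60 ± 0.60 (BL05045) and -1.37 ± 0.50 (BL21312). None of these falls was called under all 5 other scalings. DNAJB11 (BL16455), a soluble partner of HSPA5, had 1544 in Activin and 1026 in control explants at 11 hpf, and 1499 in Activin and 166.3 in control explants at 19 hpf. It rose at 19 hpf by 3.17 ± 0.39 (adjusted p = 9.8e-15), with a difference between times of 2.58 ± 0.53 (adjusted p = 4.1e-05). A second gene, DNAJB11 (BL21656), was not called, at -0.30 ± 0.38 and -0.48 ± 0.36. DNAJB12 (BL15447), of the ER membrane, had 594.2 in Activin and 2844 in control explants at 11 hpf (-2.26 ± 0.35), and 815.6 in Activin and 723.9 in control explants at 19 hpf (0.17 ± 0.36, not called). Its difference of 2.43 ± 0.50 passed (adjusted p = 4.0e-05), and on ribosomal centring its value at 19 hpf was -0.88, called lower. DNAJC1, DNAJC10, DNAJC16 and DNAJC25 were not called at either time.

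The 2 ciliary members fell at both times. DNAJB13, of the radial spokes of motile cilia, had 47.96 in Activin and 414.6 in control explants at 11 hpf, and 119.1 in Activin and 576 in control explants at 19 hpf. It lay at -3.11 ± 0.46 and -2.27 ± 0.41. HSPB11, known as IFT25 of intraflagellar transport, fell, at -2.36 ± 0.79 (-1.63 and not called on abundant genes) and -2.97 ± 0.80. Most markers of motile cilia moved with them: 12 of 14 genes fell at 11 hpf, 85.7% against 24.6% of all genes. At 19 hpf 14 of 15 fell, 93.3% against 27.7%. The marker DNAH9 (BL14190) rose at both times, by 3.29 ± 0.92 and 3.23 ± 1.16. The cilia markers together summed to 4488 in Activin and 47222 in control explants at 11 hpf and to 7544 in Activin and 90494 in control explants at 19 hpf. FOXJ1 had 428.8 in Activin and 11880 in control explants at 11 hpf, and the part of the cilia genes in the result was not tested.

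The 3 vesicle and endosome genes, DNAJC5 (BL07593 and BL90182) of synaptic vesicles and DNAJC13 of endosomes, were not called at either time, and 0 had an unadjusted p below 0.05 by the authors' Wald test. On ribosomal centring these 3 were called lower at 19 hpf. DNAJC22 fell at 11 hpf, at -2.38 ± 0.43, and lay at -0.96 ± 0.69 at 19 hpf, not called, though it was called lower there on ribosomal centring. TCP11L1 fell at both times, at -1.41 ± 0.38 and -0.90 ± 0.39.

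Across the 67 members in both tables, 9 rose at both times, 7 fell at both, 3 fell at 11 hpf and rose at 19 hpf, and 0 rose at 11 hpf and fell at 19 hpf. Such pairs of calls were not counted over all genes, so whether these numbers depart from the background is not known. The 3 that turned were DNAJA2, DNAJA3 and HSPE1, whose falls at 11 hpf were all lost on abundant genes, by upper quartile and by total count, while their differences between times held under all 5 scalings. The effect differed between times for 16 of 67, 23.9% against 16.8% of all genes, with 14 higher at 19 hpf, 20.9% against 10.1%, and 2 lower, against 6.7%. The difference was lost under at least 1 of the 5 scalings for HSPA8 (BL01083), HSPH1, HSP90AA1 (BL18399), DNAJA1, PFDN6 and HSPD1. The median difference was 0.51, against 0.17 for all genes.

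**Figure D5:**
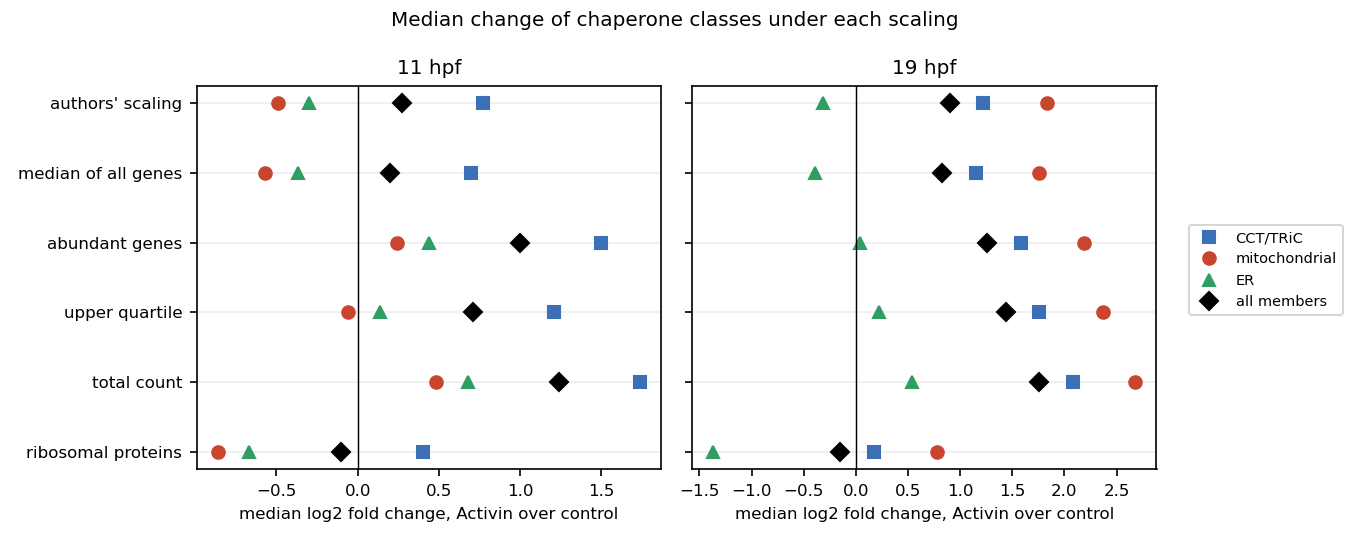
Median log2 fold change of Activin over control for CCT/TRiC, mitochondrial, ER and all members under the authors' scaling and 5 others, at 11 hpf (left) and 19 hpf (right). At 19 hpf the mitochondrial median ran from 0.78 on ribosomal proteins to 2.68 by total count. Each scaling shifts all genes of a time alike, so the order of the medians within a time is the same under each.

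Folding genes outside the name rule were counted from 4 lists. Whether their calls hold under the other scalings was not tested, so the calls and turns below are those of the authors' scaling alone. Over all genes 12.0% rose and 24.6% fell at 11 hpf, and 18.7% rose and 27.7% fell at 19 hpf. Of 13 co-chaperones of cytosolic HSP90 and HSP70, 3 rose and 3 fell at 11 hpf, 23.1% each way. At 19 hpf 8 rose and 1 fell, 61.5% and 7.69%. The medians were 0.62 and 1.2. FKBP4 (BL15312), an immunophilin of HSP90, had 1019 in Activin and 2262 in control explants at 11 hpf, and 1017 in Activin and 121.2 in control explants at 19 hpf. It fell at 11 hpf, at -1.15 ± 0.36, and rose by 3.07 ± 0.41 at 19 hpf, a difference of 4.22 (adjusted p = 4.0e-12). FKBP5, a related immunophilin, and HSPBP1, an HSP70 exchange factor, turned the same way, with differences of 4.85 (adjusted p = 2.2e-06) and 4.61 (adjusted p = 3.8e-08). PPID, another HSP90 immunophilin, rose by 1.13 ± 0.41 and 2.58 ± 0.38, and SUGT1 fell at 19 hpf (-1.06 ± 0.35).

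Mitochondrial folding and protease genes numbered 1 higher and 1 lower of 12 at 11 hpf, 8.33% each, against 12.0% and 24.6% of all genes. At 19 hpf 5 were higher and 1 lower of 12, 41.7% and 8.33% against 18.7% and 27.7%. TRAP1 (BL24957), the mitochondrial HSP90, had 124.4 in Activin and 199.7 in control explants at 11 hpf (-0.68 ± 0.50, not called), and 454 in Activin and 50.07 in control explants at 19 hpf. It rose by 3.18 ± 0.48 at 19 hpf, and its difference of 3.86 between times passed (adjusted p = 1.8e-06). At 19 hpf TIMM44, which anchors HSPA9 at the import channel, rose by 3.09 ± 0.46, and GRPEL1, the exchange factor of HSPA9, by 1.56 ± 0.43. CLPX, an unfoldase of the matrix, fell (-0.86 ± 0.30).

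ER folding genes outside the rule numbered 1 higher and 3 lower of 14 at 11 hpf, 7.14% and 21.4% against 12.0% and 24.6% of all genes. At 19 hpf 2 were higher and 8 lower of 14, 14.3% and 57.1% against 18.7% and 27.7%, with a median of -1.09. At 19 hpf HSP90B1, the HSP90 of the ER, fell, at -2.29 ± 0.35, as did PDIA6, a disulfide isomerase, at -2.28 ± 0.34, while CANX, a lectin chaperone, rose by 1.08 ± 0.31 and SIL1, an exchange factor of HSPA5, by 2.35 ± 0.54. Partners of the chaperonin and prefoldin numbered 0 higher and 2 lower of 12 at 11 hpf, 0.0% and 16.7%. At 19 hpf 1 was higher and 1 lower of 11, 9.09% each. Each of these partner shares lay below that of all genes. PDCL3, a cofactor of CCT, had 322.6 in Activin and 4071 in control explants at 11 hpf (-3.66 ± 0.39), and 1272 in Activin and 1556 in control explants at 19 hpf (-0.29 ± 0.35, not called). TBCA, a tubulin-folding cofactor, rose by 1.67 ± 0.51 at 19 hpf.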

How the data were processed

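RNA was sequenced in 8 libraries of 4 groups. The submitters' processing notes name HISAT2, featureCounts and edgeR, and no version of them; the genome build and annotation are not given in the sources used here. Column names are those of a DESeq2 results table, per the file headers. Each deposited mean is a signal, the depth-normalized count averaged by the authors over a time's libraries. Fold changes and errors were deposited as log2. The deposited Wald statistic is a score equal to fold change over error. Raw and adjusted p-value columns come from the authors, with Benjamini-Hochberg adjustment over a table's rows.

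The edgeR refit planned for counts per library was not made, since the tables hold comparisons. Python 3.11.15, pandas 2.3.3, scipy 1.17.1 and matplotlib 3.10.9 were used. Differences between times were tested by a two-sided Wald test from both errors. A run on simulated data drew its noise from those same errors. It therefore could not test how well 2 libraries per group estimate them. Scaling alternatives subtracted 1 value from all fold changes and repeated test and adjustment; other thresholds, a filter on means and 1 gene per symbol were also tried. The p-values measure only the spread between pooled samples. Members and lists were chosen with earlier results of these data known.

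Genes named by rule were the 6 called members with the largest rise and the 6 with the largest fall at each time, the 6 with the highest mean, the HSF, HSP90A, HSPA1, HSPA8, HSPA5, HSPA9, HSPD1, HSPE1, CCT and ciliary genes, those whose difference between times passed, and the extremes of each class. Other members, and the genes outside the name rule that are given with values, were named after their values were seen. No member symbol matched the reference gene table, so coordinates and sequences are not printed.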

Additional observations from a re-analysis of the deposited data

Results flagged for a closer look

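The Activin effect differed between 11 and 19 hpf for 16 members by the Wald test of the difference, Benjamini-Hochberg adjusted over all genes in both tables. Differences are log2 values, the effect at 19 hpf minus that at 11 hpf. In the mitochondria they were 3.0 for HSPA9, 2.86 for HSPE1, 2.74 for DNAJA3 and 1.5 for HSPD1. In the cytosol they were 4.26 for HSPA6, 4.08 for HSPA8 (BL01083), 2.84 for HSPA14, 2.12 for PFDN6, 2.01 for DNAJA2, 1.98 for HSP90AA1 (BL18399), 1.68 for HSPH1, 1.28 for DNAJA1 and -2.23 for BAG3. In the ER they were 2.58 for DNAJB11 (BL16455), 2.43 for DNAJB12 and -1.80 for HSPA5. Groups of 2 libraries without values per library could not be searched for a library far from the others.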

How the results depend on the processing

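No paired analysis was possible because the deposited tables hold comparisons, not values per library; leaving out a replicate and a refit with edgeR or DESeq2 were not run for the same reason. Other scalings added to every log2 fold change, at 11 and 19 hpf, -0.07 and -0.07 (median of all genes), 0.73 and 0.36 (median of genes with a mean of 1000 or more), 0.44 and 0.54 (upper quartile), 0.98 and 0.86 (total count), and -0.37 and -1.05 (ribosomal proteins). Calls held under all 5 for 10 of 27 members at 11 hpf, 14 of 42 at 19 hpf and 10 of 16 differences between times. Counts higher and lower at 11 hpf, of 10 and 17, became 27 and 7 (abundant genes), 22 and 9 (upper quartile) and 31 and 6 (total count), and 4 and 22 on ribosomal proteins. At 19 hpf, of 29 and 13, they became 44 and 6 by total count and 8 and 21 on ribosomal proteins, and 7 were lower on abundant genes and by upper quartile. Differences between times, of 14 positive and 2 negative, became 8 and 5 on ribosomal proteins. The shares of all genes under these scalings were not counted, so the counts here and below have no background beside them.

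On abundant genes, upper quartile and total count in that order, cytosolic members at 11 hpf were higher in 20, 16 and 24 and lower in 4, 4 and 3, CCT/TRiC genes higher in 10, 9 and 11, and mitochondrial and ER members each higher in 3, with 0 mitochondrial genes lower. ER members at 19 hpf were higher in 3, 4 and 5 and lower in 1, 1 and 0. Medians that turned positive were, in that order, 0.44, 0.14 and 0.68 for ER and 0.55, 0.25 and 0.79 for prefoldin at 11 hpf, 0.04, 0.22 and 0.54 for ER at 19 hpf, and, on abundant genes and total count, 0.24 and 0.48 for mitochondrial members at 11 hpf. DNAJA1 at 11 hpf became 0.08 by total count.

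On ribosomal proteins, at 11 hpf 4 cytosolic and 2 CCT/TRiC genes were higher and 3 ER genes lower, and the median of all members was -0.1. At 19 hpf 3 mitochondrial, 4 cytosolic and 1 CCT/TRiC genes were higher. Lower at that time were 1 mitochondrial and 7 ER genes, and also the 3 vesicle and endosome genes and DNAJC22, which were not called under the authors' scaling. Medians there became -0.15 (all), -0.03 (cytosolic) and -0.38 (prefoldin). DNAJA2 became -0.27, HSPA8 (BL10970) -0.08, CCT4 -0.03, CCT5 -0.14, PFDN2 -0.06, CCT7 (BL24068) -0.09 and DNAJB12 -0.88, now called lower. These shifts follow from the value subtracted.

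At an adjusted p below 0.01, 17 members were called at 11 hpf, 5 higher (all cytosolic, 2 of them CCT/TRiC), with 0 mitochondrial genes lower; at 19 hpf 15 cytosolic genes were higher and 1 ER gene lower, and 1 difference was negative. Readjusting over genes with a mean of at least 10 gave 2 ER genes higher at 19 hpf. Prefoldin genes lower at 11 hpf, 0 as reported, became 2 under that filter, on the median of all genes and on ribosomal proteins, and 1 was higher by total count. Prefoldin genes higher at 19 hpf, 2 as reported, became 1 at a fold minimum of 2, 0 at an adjusted p below 0.01 and on ribosomal proteins, 4 on abundant genes, and 5 by upper quartile and by total count. Other counts recomputed with a fold minimum of 2 stayed within 1.5 times, as did the counts of all members with one gene per symbol or without TCP11L1. Genes with a mean under 100 had a 95% limit of 4.56-fold at 11 hpf and 4.89-fold at 19 hpf.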
